A study of Mus musculus with 32 samples.

Results

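The 37 genes described here encode the receptors through which the monoamines (serotonin, dopamine, noradrenaline and histamine) and acetylcholine act on brain cells. They were taken by gene symbol from a list of receptor families, and all 37 were found among the 53715 genes of the count table: 13 serotonin, 5 dopamine, 7 adrenergic, 3 histamine, 5 muscarinic and 4 nicotinic receptor genes. The study crossed mice carrying mutations of opposing histone H3 lysine 4 enzymes, the methyltransferase *Kmt2a* and the demethylase *Kdm5c*, and measured RNA in amygdala and hippocampus. Adult males of 4 genotypes were compared: wild type (WT), *Kmt2a* heterozygotes (*Kmt2a*-HET), *Kdm5c* hemizygous knockouts (*Kdm5c*-KO) and double mutants carrying both alleles (DM). All 4 were F1 offspring of 129S1/SvImJ *Kmt2a*-HET fathers and C57BL/6J mothers heterozygous for the *Kdm5c* allele, so every animal, WT included, shared that hybrid background. Both alleles are constitutive and therefore present in every cell of the body rather than in neurons alone. Each genotype had 4 mice, and both regions came from the same 16 mice, giving 32 libraries in 8 groups of 4.

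Most of these receptors signal through G proteins. Those that couple to Gs raise cyclic AMP, those that couple to Gi lower it and open potassium channels, and those that couple to Gq release calcium through phospholipase C. *Htr3a* and the nicotinic genes instead encode subunits of ion channels opened by serotonin or acetylcholine. The transmitters reach amygdala and hippocampus mostly along axons of cell bodies that lie elsewhere, in raphe, midbrain, locus coeruleus, posterior hypothalamus and basal forebrain, so receptor RNA in a dissected region reports mainly on the cells that receive the signal.

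The amygdala libraries held between 19215503 and 26033615 gene counts and the hippocampus libraries between 19322262 and 27798980, with 21445 to 23252 genes above 0 in each. Markers of hippocampus checked the regions well: the summed level of 5 dentate gyrus markers was 12.1 to 36.7 TPM (counts divided by transcript length and scaled to a fixed total per library) in amygdala and 61.1 to 294 in hippocampus, and that of 3 CA1 markers 18.8 to 49.8 and 134 to 300, without overlap in either case. The 5 markers chosen for amygdala nuclei overlapped, at 55.6 to 158 in amygdala and 36.5 to 110 in hippocampus. Amygdala libraries also carried 8 striatal markers, some of which amygdala neurons express themselves, at 415 to 2977 TPM against 194 to 684 in hippocampus, and 8 hypothalamic markers at 361 to 1571 against 4.41 to 87.8. A pair of libraries stood apart from their groups: WT amygdala replicate 1, with low striatal (498) and oligodendrocyte (1857) sums, and *Kdm5c*-KO hippocampus replicate 1, with a choroid plexus sum of 7949, the highest striatal sum of its region (684) and its lowest dentate sum (61.1). Several results that rest on either are given with and without both. A further 3 amygdala libraries were extreme in 1 sum each, *Kdm5c*-KO replicate 3 with the lowest striatal sum (415) and DM replicates 1 and 3 with choroid plexus sums of 3224 and 585.5, and these were left out singly. The targeted genes were counted over their whole length, which includes exons outside the deletions. *Kmt2a* overlapped between WT (2075 to 5469 normalised counts) and *Kmt2a*-HET (3410 to 4480) amygdala and does not check the labels. *Kdm5c* ran from 1463 to 1963 in WT hippocampus and lower, from 1184 to 1410, in *Kdm5c*-KO hippocampus. DM hippocampus, at 1371 to 1481, overlapped WT. In amygdala WT (1177 to 1965) overlapped *Kdm5c*-KO (1199 to 1400) and DM (1179 to 1313) through WT replicate 1 at 1177. The next WT amygdala library stood at 1521.

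Levels that can be compared between genes are given in TPM. On this scale, *Hrh3*, the histamine receptor that restrains release from histamine and other nerve endings, was the most abundant of the 37 in amygdala, with a median of 122.6 TPM (highest 142.5 of 16 libraries). *Chrm1*, the Gq-coupled muscarinic receptor of forebrain pyramidal cells, came next in amygdala at 68.0 and was the most abundant in hippocampus at 163.6 (111.5 to 197.8). In hippocampus it was followed by *Adra1d*, a Gq-coupled adrenergic receptor, at 99.5, by *Hrh3* at 59.0, and by *Chrm3*, another Gq-coupled muscarinic receptor, at 36.1. After these, the amygdala order went on with *Drd2*, the Gi-coupled dopamine receptor, at 57.5 and *Chrnb2*, the nicotinic beta subunit that assembles with *Chrna4*, at 40.5. A median above 10 TPM was reached by 18 members in amygdala and 12 in hippocampus, and 4 and 5 members lay under 1.

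Few steps in these orders were larger than the spread. Of the 36 neighbouring pairs in amygdala, 4 differed by more than the larger of their SDs, the steps from *Hrh3* to *Chrm1*, from *Htr3a* to *Drd5*, from *Htr5b* to *Htr1f* and from *Drd4* to *Htr2b*. In hippocampus 5 did, namely the first 3 steps of the order, from *Chrm1* to *Adra1d* to *Hrh3* to *Chrm3*, and those from *Chrm4* to *Adrb1* and from *Htr1f* to *Drd4*. The order also depends on the length used: divided by merged exon length, *Adra1d* (151.0) came close to *Chrm1* (161.5) in hippocampus, and *Drd2* (86.5) passed *Chrm1* (67.3) in amygdala. The coefficient of variation over 16 libraries had a median of 24.0% among the 33 members at 1 TPM or more in amygdala (9.73% to 72.4%) and 27.3% among 32 in hippocampus (6.59% to 127%).

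Summed by family, the medians were 143 TPM for histamine, 128 for muscarinic, 115 for serotonin, 108 for adrenergic, 92.4 for dopamine and 77.8 for nicotinic receptors in amygdala. The hippocampus sums were 223 for muscarinic, 165 for adrenergic, 81.1 for serotonin, 73.6 for nicotinic, 68.4 for histamine and 15.1 for dopamine receptors. A few genes carried some of these sums: *Hrh3* most of the histamine total, *Drd2* and *Drd1* most of the amygdala dopamine total, and *Adra1d* most of the hippocampal adrenergic total. The serotonin sums were spread over more genes. In bulk tissue fewer cells of an expressing type and less RNA per cell cannot be told apart.

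**Figure D1:**
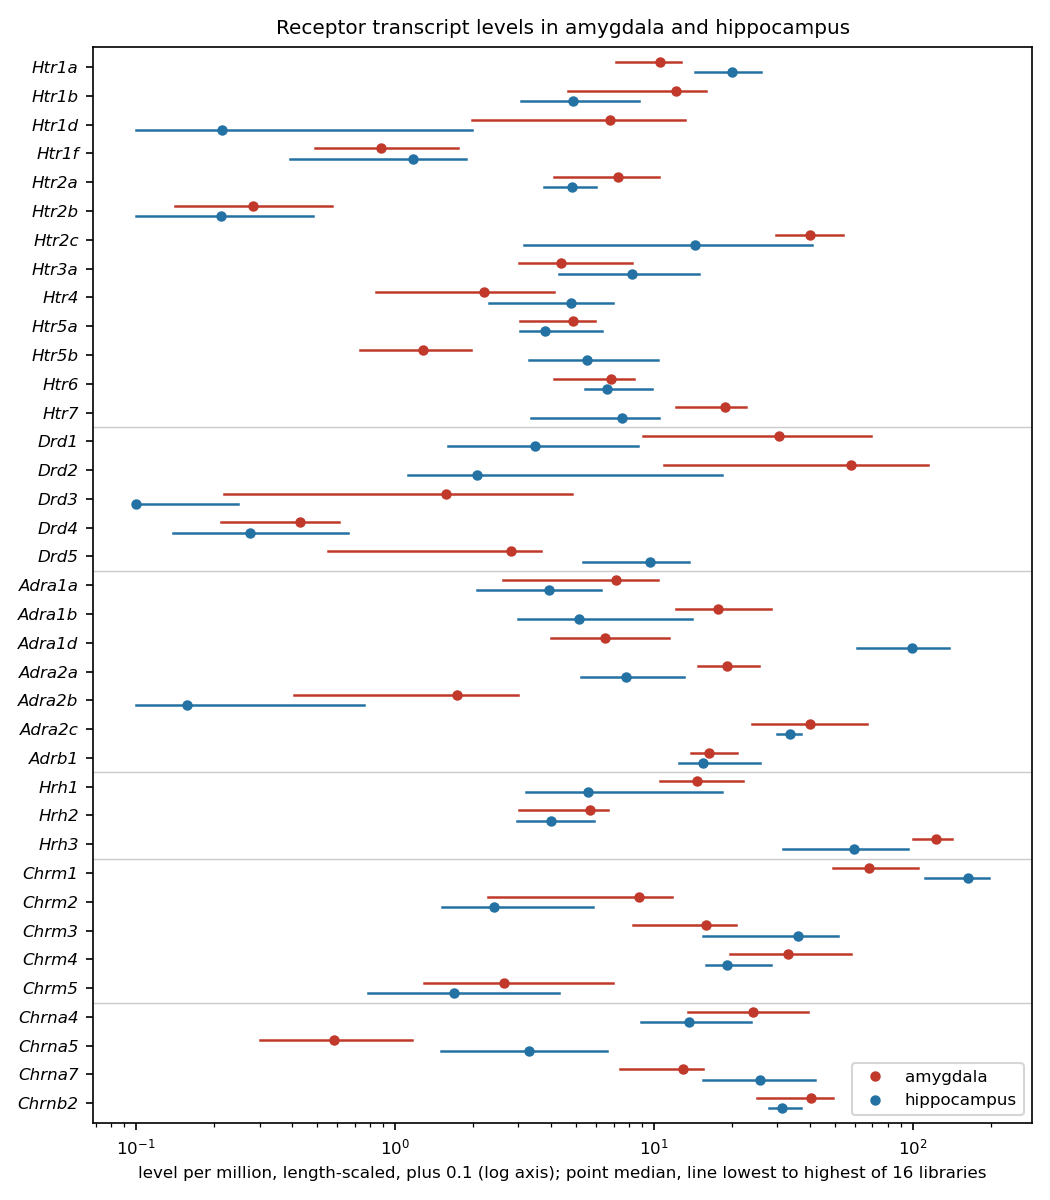
Level in TPM (log axis, with 0.1 added) of the 37 receptor genes in amygdala and hippocampus. Points are medians and lines run from the lowest to the highest of 16 libraries per region. *Hrh3* leads in amygdala and *Chrm1* in hippocampus, and the medians of *Htr1d*, *Drd2*, *Drd3* and *Adra1d* lie far apart between the regions.

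Most of these genes differed between the regions. Averaged over the 4 genotypes, 32 of the 37 differed between hippocampus and amygdala (DESeq2 Wald test, adjusted p under 0.1), where 46.3% of the 23650 genes tested did. Of these, 21 were higher in amygdala, beside 23.9% of all genes, and 11 were higher in hippocampus, beside 22.4%. The median log2 difference, hippocampus minus amygdala, was -0.50 over the members and -0.0099 over all genes. Within single genotypes the calls numbered 26 for WT (21.2% of all genes called), 26 for *Kmt2a*-HET mice (29.6%), 26 for *Kdm5c*-KO mice (24.0%) and 30 for DM (27.1%). In WT 10 were higher in hippocampus and 16 in amygdala, where 9.90% and 11.3% of all genes were. The sign was the same in all 4 genotypes for 30 of the 32. Leaving out the pair of libraries that stood apart again gave 32 calls (48.1% of all genes), and with the mouse as a block 34 passed (46.9%), *Htr2b* (adjusted p = 0.0878) and *Htr5a* (adjusted p = 0.0979) having been added. With size factors from the spike-in RNAs, which move the median of all genes by 0.64 on the log2 scale towards hippocampus, 24 were called, a share of the 37 near the 61.4% of all genes called. The split turned with it, to 10 higher in amygdala (4.42% of all genes) and 14 higher in hippocampus (57.0%), and 7 of the 32 changed sign: *Adra1a*, *Htr2a*, *Chrna4*, *Chrm5*, *Hrh2*, *Chrnb2* and *Adra2c*. None of these 7 was called in the turned direction (adjusted p from 0.112 to 0.980). Another 4 lost their call while keeping their sign, namely *Hrh1* (log2 -0.50, adjusted p = 0.161), *Hrh3* (-0.33, 0.293), *Htr1b* (-0.44, 0.133) and *Chrm4* (-0.04, 0.914). *Htr5a*, *Adrb1* and *Htr1f* were gained. Within genotypes the same scaling called 14 members for WT (8.18% of all genes), 14 for *Kmt2a*-HET (6.78%), 16 for *Kdm5c*-KO (24.5%) and 13 for DM (5.34%). Differences are therefore relative to all genes, and for those 7 the direction depends on the scaling.

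**Figure D2:**
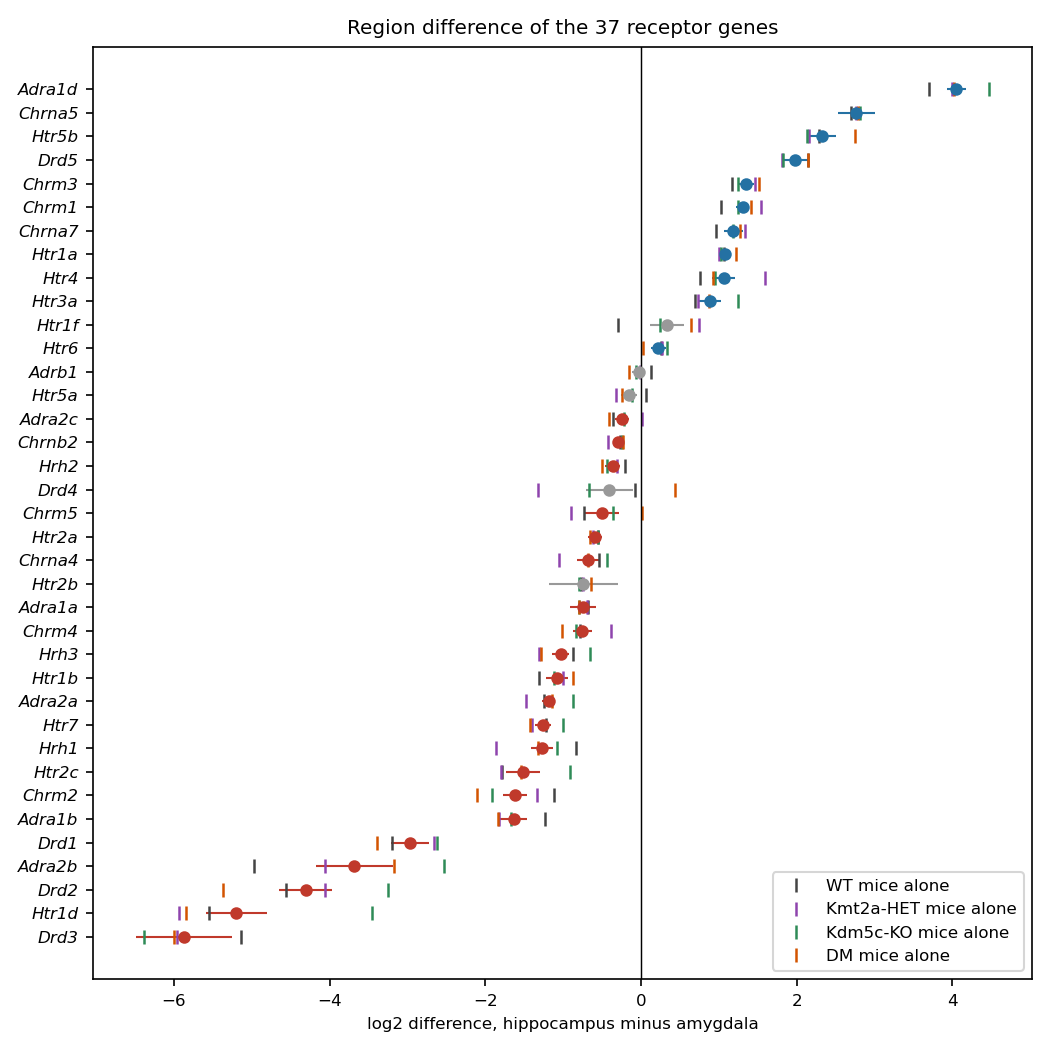
Log2 difference, hippocampus minus amygdala, for each of the 37 receptor genes, with the SE of the DESeq2 fit over 32 libraries, sorted by size. *Adra1d* lies farthest to the right at 4.05, *Htr1d* (-5.20) and *Drd2* (-4.31) lie among the farthest to the left, and *Adrb1* lies near 0. The *Htr1d* value rests on few hippocampal reads.

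Promoter sequence is shown for 4 of the genes with the largest regional differences, 3 of them higher in amygdala and 1 higher in hippocampus. Each is the stretch before the RefSeq start (GRCm38.p6), 5′ to 3′ along the gene's strand. Bases inside a transcript of the gene in the GENCODE M21 annotation were left out, so the *Drd1* stretch ends short of its RefSeq start. CG dinucleotides, the substrate of DNA methylation and a hallmark of CpG island promoters, are in capitals.
Drd2, chr9:49340153-49340402, plus strand: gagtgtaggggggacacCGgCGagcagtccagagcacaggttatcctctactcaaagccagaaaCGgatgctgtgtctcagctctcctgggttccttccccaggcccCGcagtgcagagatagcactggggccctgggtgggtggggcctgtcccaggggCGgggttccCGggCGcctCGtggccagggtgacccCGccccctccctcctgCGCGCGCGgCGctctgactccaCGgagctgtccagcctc
Drd1, chr13:54055706-54055908, minus strand: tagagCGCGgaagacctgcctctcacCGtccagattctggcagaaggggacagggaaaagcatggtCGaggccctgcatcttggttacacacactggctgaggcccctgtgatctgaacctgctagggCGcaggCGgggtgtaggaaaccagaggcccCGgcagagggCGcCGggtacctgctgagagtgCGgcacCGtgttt
Htr1d, chr4:136423274-136423523, plus strand: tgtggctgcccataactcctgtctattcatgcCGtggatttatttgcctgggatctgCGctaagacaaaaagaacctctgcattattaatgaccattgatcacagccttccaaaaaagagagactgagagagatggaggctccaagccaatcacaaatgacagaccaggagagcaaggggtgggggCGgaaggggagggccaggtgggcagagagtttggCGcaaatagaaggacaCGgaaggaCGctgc
Chrna5, chr9:54980630-54980879, plus strand: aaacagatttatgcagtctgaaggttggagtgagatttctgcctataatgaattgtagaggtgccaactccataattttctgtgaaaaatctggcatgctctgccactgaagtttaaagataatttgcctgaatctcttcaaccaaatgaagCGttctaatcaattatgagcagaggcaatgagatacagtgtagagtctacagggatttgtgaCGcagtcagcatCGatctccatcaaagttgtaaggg
The *Drd2* stretch held 15 CG dinucleotides in 250 bases, that of *Drd1* 11 in 203, that of *Htr1d* 6 in 250 and that of *Chrna5* 3 in 250. Windows of 300 bases, 250 before and 50 after the start, were on hand for 31 members and not for *Htr5b*, *Chrm1*, *Htr3a*, *Adra1a*, *Htr4* and *Adra1d*. By an observed to expected CG ratio above 0.6 with a GC content above 50%, 16 of the 31 (51.6%) were CG-rich, as were 33.9% of 27025 genes. Among members higher in amygdala 11 of 20 were CG-rich, and among those higher in hippocampus 3 of 6 were. The cyclic AMP response element in its full form, TGACGTCA, which reads the same on both strands, was in none of the 31 windows (0 members) and in 1.88% of all windows (507 genes).

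Dopamine receptors differed in both directions. *Drd2* (chr9:49340627-49408177, plus strand) had 301, 1376 and 2588 normalised counts as the lowest, median and highest of the 16 amygdala libraries and 25.3, 50.4 and 479 in hippocampus. All amygdala libraries but WT replicate 1 (301) and *Kdm5c*-KO replicate 3 (352) lay above the highest hippocampus library, *Kdm5c*-KO replicate 1 at 479, and the next hippocampus library stood at 93.7. The log2 difference was -4.31 ± 0.34 (SE), a 19.8-fold higher count in amygdala (adjusted p = 1.10e-35), and -4.87 without the pair of libraries. *Drd1* (chr13:54051183-54055705, minus strand), the Gs-coupled counterpart, spanned 221, 824 and 1768 in amygdala and 52.0, 95.9 and 285 in hippocampus, 7.82-fold higher in amygdala (log2 -2.97 ± 0.24, adjusted p = 7.72e-33). Its regions, too, overlapped through *Kdm5c*-KO hippocampus replicate 1 and did not without the pair of libraries. *Drd3*, a Gi-coupled receptor of limbic striatum, reached 1.90, 21.9 and 67.7 in amygdala and 0, 0 and 1.99 in hippocampus, under the floor of 3 counts in every hippocampal library, so no fold is given. *Drd5*, the other Gs-coupled dopamine receptor, went the opposite way, from 15.2, 80.3 and 114 in amygdala to 161, 300 and 434 in hippocampus, without overlap (log2 1.98 ± 0.16, 3.94-fold, adjusted p = 7.95e-32). *Drd4* stayed under 16 counts in every library and was not called.

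In amygdala the levels of *Drd2* and *Drd1* moved with the summed striatal markers. *Drd2* was lowest, at 10.8 TPM, in WT replicate 1, where the striatal sum was 498, and next lowest, at 15.2, in *Kdm5c*-KO replicate 3, where it was 415. The highest *Drd2* levels, 114 in WT replicate 4 and 110 in DM replicate 2, came with the highest striatal sums, 2977 and 2929. *Kmt2a*-HET replicates 2 to 4 lay between these, with *Drd2* at 33.1 to 44.8 and sums of 940 to 1207. Libraries were thus high or low in dopamine receptor RNA and in 8 other genes of striatal neurons together. None of the 8 striatal markers was at 0 in any library, and their part in the regional and genotype values of *Drd1*, *Drd2* and *Drd3* was not tested.

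**Figure D3:**
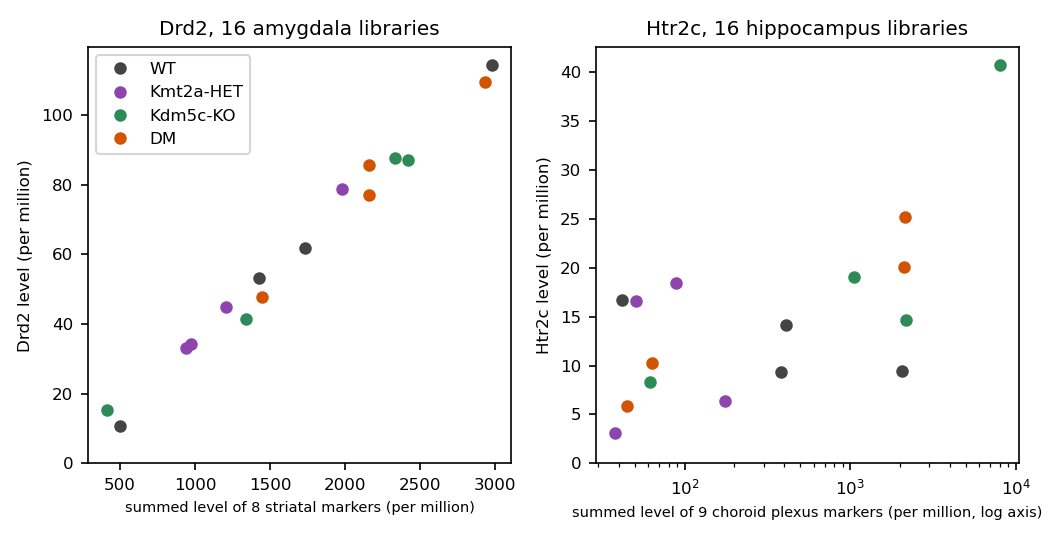
Level (TPM) of *Drd2* in amygdala against the summed level of 8 striatal markers, and of *Htr2c* in hippocampus against that of 9 choroid plexus markers on a log axis. Points are libraries, coloured by genotype. *Drd2* in amygdala runs from 10.8 to 114 along striatal sums of 415 to 2977, and the hippocampal library with the highest choroid plexus sum (7949) has the highest *Htr2c* level of its region (40.7).

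Among the adrenergic receptors, *Adra1d* (chr2:131545850-131562283, minus strand) had the smallest adjusted p of all members. Its counts were 75.3, 112 and 206 in amygdala and 1200, 1829 and 2567 in hippocampus, with no overlap. The log2 difference was 4.05 ± 0.12, a 16.5-fold higher count in hippocampus (adjusted p = 1.69e-237). The related Gq-coupled *Adra1b* (chr11:43774606-43901210, minus strand) went the other way, at 289, 393 and 657 in amygdala and 63.8, 126 and 343 in hippocampus (log2 -1.64 ± 0.17, 3.11-fold, adjusted p = 1.07e-20). Its overlap came from 1 hippocampal library, WT replicate 4 at 343. The Gi-coupled *Adra2b* (chr2:127363208-127367221, plus strand) was a low-count gene, at 13.3, 61.0 and 104 in amygdala and 0, 2.26 and 26.9 in hippocampus, with a fitted log2 difference of -3.68 ± 0.50 (adjusted p = 1.02e-12) that rests on few hippocampal reads. Leaving out the pair of libraries moved it to -4.49. The more abundant *Adra2a*, an autoreceptor of noradrenergic endings as well as a postsynaptic receptor, was 2.28-fold higher in amygdala without overlap, 674 to 1117 against 238 to 651. The Gi-coupled *Adra2c* differed less, with medians of 1379 in amygdala and 1117 in hippocampus. With spike-in size factors its sign turned and it was not called. *Adrb1*, the Gs-coupled receptor, had medians of 453 and 448 and was not called (log2 -0.03 ± 0.083, adjusted p = 0.822).

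The 13 serotonin receptors split into 5 higher in amygdala, 5 higher in hippocampus and 3 not called. *Htr1d* (chr4:136423524-136444398, plus strand), a Gi-coupled receptor of axon terminals, had the largest difference of the family, at 59.8, 135 and 235 in amygdala and 0, 3.29 and 44.9 in hippocampus (log2 -5.20 ± 0.40, adjusted p = 1.62e-37). The hippocampal value of 44.9 was *Kdm5c*-KO replicate 1, and the other 15 libraries did not exceed 4.98. Without the pair of libraries the log2 difference was -5.83, and both values rest on few hippocampal reads. Its relative *Htr1b* was 2.10-fold higher in amygdala, with overlap, and is not called with spike-in size factors. *Htr2c*, a Gq-coupled receptor whose RNA is abundant in choroid plexus, and the Gs-coupled *Htr7* were 2.85-fold and 2.40-fold higher in amygdala. *Htr5b* (chr1:121509842-121528465, minus strand), a receptor that mice retain and humans do not, was instead 5.03-fold higher in hippocampus, at 60.2, 102 and 202 against 11.4, 22.7 and 33.8 (log2 2.33 ± 0.18, adjusted p = 3.01e-38). *Htr1a*, the Gi-coupled receptor that serves as autoreceptor in raphe and as postsynaptic receptor in hippocampus, was 2.11-fold higher there without overlap, 629 to 1176 against 334 to 524. *Htr4* and *Htr3a*, the subunit of the serotonin-gated channel, were 2.08-fold and 1.85-fold higher in hippocampus.

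In hippocampus *Htr2c* was uneven, from 3.07 to 40.7 TPM, while the 16 amygdala libraries kept to 29.6 to 53.6. The highest hippocampal level, 40.7, was in *Kdm5c*-KO replicate 1, where the choroid plexus sum was 7949. Libraries with sums near 2100 had *Htr2c* at 9.44 (WT replicate 3), 14.7 (*Kdm5c*-KO replicate 4), 20.1 (DM replicate 2) and 25.2 (DM replicate 4). By contrast *Kmt2a*-HET replicate 3, with a sum of 88.6, had 18.4 and *Kmt2a*-HET replicate 4, with 38.1, had 3.07. Below the highest library, then, libraries with like sums had unlike *Htr2c* levels, and the part of choroid plexus RNA was not tested. In amygdala, DM replicate 1 had a choroid plexus sum of 3224 and *Htr2c* at 44.3, within the range of its region. Without the pair of libraries the regions no longer overlapped.

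All 5 muscarinic receptors differed. *Chrm1* (chr19:8663789-8683587, plus strand) and *Chrm3* (chr13:9875486-10360847, minus strand), both Gq-coupled, were higher in hippocampus. *Chrm3* was at 342, 587 and 756 in amygdala and 691, 1444 and 2095 in hippocampus (log2 1.35 ± 0.11, 2.54-fold, adjusted p = 5.94e-36). Its regions overlapped through *Kdm5c*-KO hippocampus replicate 1 at 691 and did not without the pair of libraries. *Chrm1* was 2.47-fold higher, and its regions just failed to touch. The highest amygdala library, WT replicate 1, had 4869 counts and the lowest hippocampus library, *Kdm5c*-KO replicate 1, had 4874. Without this pair of libraries the log2 difference was 1.40, against 1.30 with them. The Gi-coupled *Chrm2* and *Chrm4* were 3.07-fold and 1.68-fold higher in amygdala, *Chrm4* without a call under spike-in size factors. *Chrm2* overlapped between the regions through WT amygdala replicate 1 at 136. Without the pair of libraries it did not (log2 -1.72, against -1.62 with them). The scarce Gq-coupled *Chrm5* was 1.41-fold higher in amygdala (adjusted p = 0.0524). With spike-in size factors its sign turned and it was not called. The 3 histamine receptors were all higher in amygdala, the Gq-coupled *Hrh1* 2.42-fold, *Hrh3* 2.04-fold and the Gs-coupled *Hrh2* 1.29-fold. With spike-in size factors none of the 3 was called, and the sign of *Hrh2* turned. Of the nicotinic genes, *Chrna5* (chr9:54980880-55007779, plus strand), an accessory subunit, was 6.79-fold higher in hippocampus, at 26.0, 64.7 and 134 against 3.71 to 20.2 (log2 2.76 ± 0.24, adjusted p = 2.07e-29). *Chrna7*, which forms channels of its own, was 2.28-fold higher in hippocampus, 329 to 849 against 157 to 299. *Chrna4* and *Chrnb2*, the partners of the common high-affinity receptor, were 1.60-fold and 1.23-fold higher in amygdala. With spike-in size factors the sign of both turned and neither was called.

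The genotype comparisons ask whether loss of either enzyme, or of both, alters receptor RNA, and whether the second mutation offsets the first. No member passed the adjusted threshold in any of them. In amygdala, 0 of 37 members were called for *Kmt2a*-HET against WT (0.00988% of all genes called), *Kdm5c*-KO against WT (0.756%), DM against WT (0.990%), DM against *Kdm5c*-KO (0.00329%), DM against *Kmt2a*-HET (0.805%) and the interaction of both mutations (0.00329%). In hippocampus 0 were called for the same comparisons, with 0.00%, 1.01%, 0.881%, 0.00670%, 0.606% and 0.00% of all genes called. DESeq2 gave 36 members a p in hippocampus, *Drd2* being set aside for an extreme count, and an adjusted p to 34 in the 3 comparisons where *Drd3* and *Htr2b* fell below its count filter. edgeR likewise called 0 members in each comparison. The smallest adjusted p over all of these was 0.251, for *Hrh1* in DM against *Kmt2a*-HET amygdala (log2 -0.46 ± 0.16, unadjusted p = 0.00386).

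At an unadjusted p under 0.05, few members passed in most comparisons, and 6 did in DM against *Kmt2a*-HET amygdala. In amygdala, 1 member passed for *Kmt2a*-HET (3.05% of all genes), 1 for *Kdm5c*-KO (3.84%) and 0 for DM (4.86%) against WT, 2 for DM against *Kdm5c*-KO (2.29%), 6 for DM against *Kmt2a*-HET (4.48%) and 2 for the interaction (2.82%). In hippocampus the counts were 1 (2.40%), 3 (5.55%), 4 (5.33%), 3 (4.53%), 2 (3.49%) and 1 (1.91%) in the same order. Whether a genotype changed the regional difference itself was tested over 32 libraries, and again 0 members were called for *Kmt2a*-HET (0.00% of genes called; 2 members and 1.78% of genes at an unadjusted p under 0.05), *Kdm5c*-KO (0.0125%; 2 and 1.99%) and DM (0.0125%; 1 and 2.02%). The 6 members past that unadjusted limit in DM against *Kmt2a*-HET amygdala were *Adra1b*, *Chrm5*, *Chrna4* and *Hrh1*, lower in DM, and *Chrm4* and *Htr1d*, higher in DM. Marker sums differed between the same groups: the thalamus and habenula sum was 84.6 to 147 TPM in DM and 160 to 196 in *Kmt2a*-HET amygdala, without overlap, and the striatal sum 1447 to 2929 and 940 to 1980. Their part in these values was not tested. With spike-in size factors the members higher in DM shrank, *Chrm4* from 0.65 to 0.17 (unadjusted p = 0.694) and *Htr1d* from 0.81 to 0.38 (0.437) on the log2 scale. The 4 lower in DM grew in size, *Adra1b* from -0.49 to -0.87 (0.0397), *Chrm5* from -0.85 to -1.20 (0.0169), *Chrna4* from -0.44 to -0.85 (0.0430) and *Hrh1* from -0.46 to -0.79 (0.0756), each with an adjusted p of 1.

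The sizes show what the design could resolve. Over the 6 comparisons of a mutant with WT, 198 fitted values belonged to members with a mean of at least 20 counts. Their median size was 0.167 on the log2 scale with a median SE of 0.259, 179 were under 0.5 and 2 were over 1. Those were *Drd3* in *Kmt2a*-HET amygdala (log2 -1.07, unadjusted p = 0.124; -1.46 and 0.0160 without the pair of libraries) and *Drd2* in *Kdm5c*-KO hippocampus (log2 1.33). The second rests on 1 library: *Drd2* was 49.1, 69.8, 73.3 and 45.4 in WT and 479, 54.4, 37.8 and 25.3 in *Kdm5c*-KO, and without the pair of libraries that stood apart the value was -0.60 (unadjusted p = 0.0573). The replicate with 479 counts was the one with the highest striatal and choroid plexus sums of its region.

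**Figure D4:**
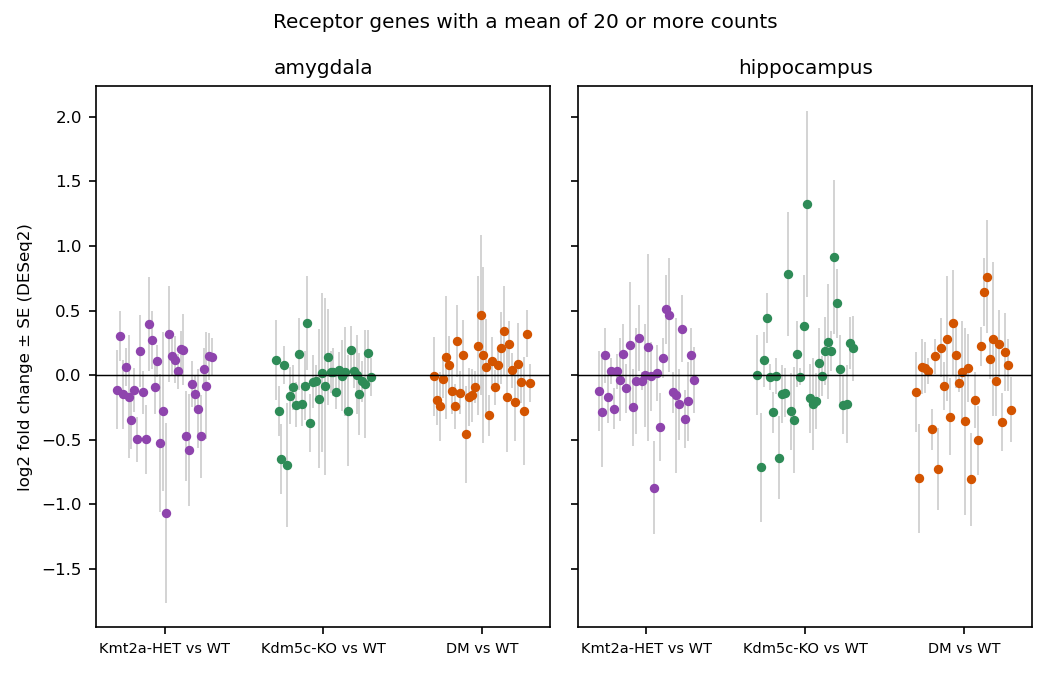
Log2 fold change against WT, with the SE of the DESeq2 fit, for the receptor genes with a mean of at least 20 counts, in amygdala and hippocampus for *Kmt2a*-HET, *Kdm5c*-KO and DM. Of the 198 points, 179 lie within 0.5 of 0, and none passed the adjusted threshold.

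The members with the smallest unadjusted p in each comparison with WT show the scale of these differences. In *Kmt2a*-HET amygdala *Chrm1* had 2348, 2352, 2024 and 2573 counts against 4869, 2381, 3072 and 2772 in WT (log2 -0.50 ± 0.17, unadjusted p = 0.00461, adjusted p = 1). The groups overlapped by a narrow margin, and the WT library at 4869 was replicate 1; without the pair of libraries the value was -0.23. *Chrm4* in the same comparison had 454, 360, 278 and 344 against 417, 437, 490 and 684 (log2 -0.50 ± 0.27, unadjusted p = 0.0646), and without WT replicate 4, at 684, the value was -0.32. Without the pair of libraries it was -0.58 (unadjusted p = 0.0411, adjusted p = 1). In *Kdm5c*-KO amygdala *Adra1d* had 75.3, 86.2, 104 and 92.3 against 155, 86.9, 206 and 115 (log2 -0.65 ± 0.27, unadjusted p = 0.0159, adjusted p = 0.620), 2 of the knockouts lying below every WT library. Without WT replicate 3, at 206, it was -0.41. *Chrna4* had 862, 669, 1075 and 717 there against 673, 931, 1712 and 985, with wide overlap (log2 -0.37 ± 0.22, unadjusted p = 0.0973). Without the pair of libraries this became -0.54 (unadjusted p = 0.00849, adjusted p = 0.284), and without WT replicate 3, at 1712, it was -0.06. In DM amygdala *Hrh1* had 288, 315, 283 and 355 against 371, 430, 449 and 296 (log2 -0.31 ± 0.16, unadjusted p = 0.0525, adjusted p = 0.745). *Htr6*, a Gs-coupled serotonin receptor, had 141, 180, 128 and 145 in DM against 97.7, 136, 109 and 135 (log2 0.32 ± 0.18, unadjusted p = 0.0794). Without the pair of libraries the *Htr6* value was 0.24 (unadjusted p = 0.210).

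Hippocampus gave differences of similar size. *Hrh1* had 150, 141, 94.4 and 87.9 counts in *Kmt2a*-HET against 159, 156, 170 and 380 in WT (log2 -0.87 ± 0.36, unadjusted p = 0.0156, adjusted p = 1). These groups did not overlap, and the size of the difference leaned on WT replicate 4 at 380, without which it was -0.44. *Htr1b* had 193, 279, 147 and 297 there against 140, 222, 153 and 128 (log2 0.51 ± 0.26, unadjusted p = 0.0539). In *Kdm5c*-KO hippocampus *Adra2a* had 651, 352, 472 and 516 against 327, 348, 303 and 482 (log2 0.44 ± 0.20, unadjusted p = 0.0234, adjusted p = 0.473), with a value of 0.29 without the pair of libraries. *Htr3a* had 239, 199, 289 and 177 against 182, 118, 143 and 171 (log2 0.56 ± 0.27, unadjusted p = 0.0378, adjusted p = 0.569), overlapping through the knockout library at 177. In DM hippocampus *Adrb1* had 465, 359, 439 and 356 against 529, 458, 433 and 741 (log2 -0.42 ± 0.16, unadjusted p = 0.00868, adjusted p = 0.351), and without WT replicate 4, at 741, the value was -0.22. *Htr1b* had 349, 256, 244 and 158 against the WT values above (log2 0.64 ± 0.26, unadjusted p = 0.0141, adjusted p = 0.426).

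**Figure D5:**
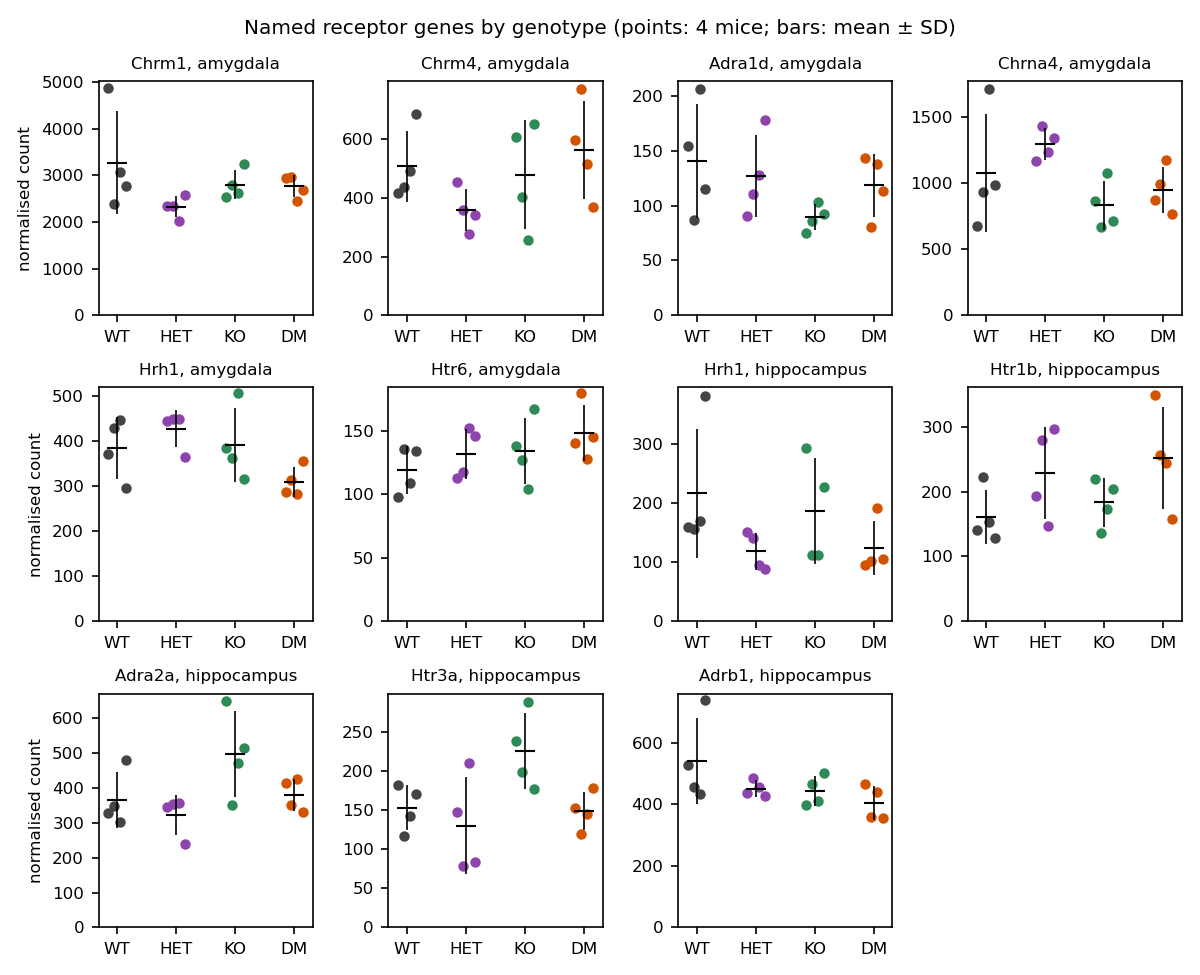
Normalised counts of the receptor genes with the smallest unadjusted p in the comparisons with WT, by genotype. Points are single mice and bars show the mean ± SD of 4. The high WT points of *Chrm1* in amygdala (4869) and *Hrh1* in hippocampus (380) stand apart from the other libraries of their groups.

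The rest of the pathway was read from 4 lists. Of 16 receptor relatives outside the 37, 12 could be tested between the regions: 1 was higher in hippocampus, *Chrna1* (log2 2.08), and 5 were higher in amygdala, among them the nicotinic *Chrna2* (-0.96) and *Chrna3* (-0.71), with a median log2 difference of -0.62 over the list. Genes of transmitter synthesis, transport and breakdown were mostly higher in amygdala, 13 of 21 against 4 higher in hippocampus (23.9% and 22.4% of all genes, as for each list here), with a median log2 difference of -0.47. The acetylcholine genes led: *Chat*, which makes the transmitter, had a median of 286 normalised counts in amygdala (20.9 to 391) and ranged from 0 to 35.9 in hippocampus. The choline transporter *Slc5a7* had medians of 394 (27.5 to 466) and 7.85 (2.55 to 75.2), a log2 difference of -4.93, and both genes overlapped between the regions. *Th*, the first enzyme of catecholamine synthesis, followed with medians of 236 and 9.35 (log2 -4.53). Among those higher in hippocampus was *Tph2*, the neuronal enzyme of serotonin synthesis, at 1.66, a scarce RNA that did not exceed 27.1 counts in any library. Of 35 G proteins and effectors, 11 were higher in hippocampus, including the calcium-stimulated cyclase *Adcy1* (log2 2.32) and the potassium channel subunit *Kcnj6* (2.12). Another 19 were higher in amygdala, including *Rgs9* (-3.46), *Ppp1r1b* (-2.70), *Adcy5* (-1.59) and *Gnal* (-1.20), which carry dopamine signals in striatal neurons. *Rgs9* and *Ppp1r1b*, like *Pde10a* of the same list, are also among the 8 striatal markers whose sum varied from 415 to 2977 TPM in amygdala, so their difference is not separate from that of the marker sum. The 12 desensitisation and chaperone genes found divided into 5 higher in hippocampus and 6 higher in amygdala. The median log2 differences of these last 2 lists were -0.17 and -0.10, beside -0.0099 over all genes.

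Between genotypes, 1 value of these 4 lists passed, among 1193 over 15 comparisons. *Ache*, which breaks down acetylcholine in the synapse, had 2038, 2077, 2298 and 1796 counts in *Kdm5c*-KO hippocampus and 1766, 1491, 1526 and 1615 in WT. Every knockout library lay above every WT library. The log2 fold change was 0.36 ± 0.094 (DESeq2, adjusted p = 0.0261) where 1.01% of all genes were called. By edgeR the adjusted p was 0.159 at a log2 of 0.36, and by edgeR with the replicate block it was 0.101 at 0.36. With spike-in size factors *Ache* was not called either, at 0.49 ± 0.51 (unadjusted p = 0.337), an SE larger than the value. Leaving out single libraries kept *Ache* called in 13 of 16 cases, with adjusted p from 0.00451 to 0.207, the last without *Kdm5c*-KO replicate 3.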

How the data were processed

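RNA was extracted from microdissected amygdala and hippocampus, and oligo-dT directional libraries with ERCC spike-in RNAs were sequenced. The authors mapped reads to mm10 with STAR 2.5.3a, keeping uniquely mapped reads without duplicates. They deposited expected counts (estimated counts that are partly not whole) per gene and per transcript, 1 column per library. Their methods name featureCounts (Subread 1.5.0), and the estimator behind the expected counts is not given in the sources used here, nor is whether counting used strand, so antisense neighbours may share reads. Because only unique reads were kept, genes with near copies can be undercounted.

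Gene names came from GENCODE M21 (53620 of 53715 genes; 92 spike-in sequences stayed out of tests). Expected counts were rounded to whole numbers. DESeq2 1.42.0 (R 4.3.3) Wald tests, with Benjamini-Hochberg adjustment over all genes tested and a threshold of 0.1, which the study also used, were fitted over the 16 libraries of a region for genotype and over 32 libraries in 8 groups for region. All p values in the results come from these fits unless edgeR is named. Normalised counts are rounded counts divided by the size factors of the 32-library fit. TPM was computed from transcript counts and GENCODE lengths (134952 transcripts). The scripts were tested on simulated data. Alternatives were edgeR 4.0.16 quasi-likelihood tests, spike-in size factors, a filter of 10 counts in at least 4 libraries, replicate blocks, leaving out each library, merged exon length for levels and, added after seeing the data, leaving out the 2 libraries that stood apart.

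Mouse numbers in the labels tie both regions to the same animal, and the deviations of the 2 libraries of a mouse from their group means correlated with a median of 0.169, above 0.1 in 14 of 16 mice, so the mouse is a true pair between regions. Members, lists and tests were chosen with earlier results of these data known. Values in every library were printed for the 2 members with the smallest unadjusted p in each comparison with WT, and the lowest, median and highest of 16 libraries for the 5 largest regional differences in each direction, all with a mean of at least 20 counts. Replicates were separate mice, and no 2 libraries of a group agreed within sampling noise (chi-square per gene 3.75 to 123.6 over 48 pairs).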

Additional observations from a re-analysis of the deposited data

Results flagged for a closer look

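In hippocampus, *Hrh1* had 379.6 normalised counts in 1 of the 4 WT libraries (replicate 4), while the others had 155.5 to 169.9. The gap to the nearest library took 0.936 of the range of the group, above Dixon's 95% critical value for 4 samples. It was 1 of 23 groups tested, and chance marks about 1 group in 20. In the same library *Adra1b* (343) and *Chrna4* (922) were also the highest of the WT hippocampus group.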

How the results depend on the processing

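With spike-in size factors the members called between the regions fell from 26 to 14 in WT, from 26 to 14 in *Kmt2a*-HET, from 26 to 16 in *Kdm5c*-KO and from 30 to 13 in DM, where the share of all genes called was 8.18%, 6.78%, 24.5% and 5.34%; the cause was not tested. Leaving out single libraries gave 0 to 1 called members for *Kmt2a*-HET against WT amygdala, where *Chrm1* passed without WT replicate 2 (log2 -0.62, adjusted p = 0.0707), and 0 to 1 for DM against *Kmt2a*-HET amygdala, where *Adra1b* passed without WT replicate 3 (log2 -0.49, adjusted p = 0.0974). For the regional calls it gave 31 to 33 over all genotypes, 21 to 27 in WT, 25 to 28 in *Kmt2a*-HET, 22 to 27 in *Kdm5c*-KO and 25 to 30 in DM.

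Labels share replicate numbers between genotypes without tying them to a litter or day. Deviations of libraries with the same number correlated above 0.1 in 11 of 24 pairs in amygdala and 8 of 24 in hippocampus. These correlations do not show a pairing by number, but they do not examine replicate 1 on its own. For *Kmt2a* and *Adra1a*, genes picked after their values were seen, replicate 1 was the lowest library of every group. Whether the replicate 1 libraries share a trait was not tested. With the replicate block, as without it, DESeq2 called 0 members in each of the 15 genotype comparisons, with a smallest adjusted p of 0.150. The mouse as replicate block gave 34 regional calls and changed no other call averaged over the genotypes than those named beside them. Other alternatives left 0 members called in the genotype comparisons, with smallest adjusted p of 0.430 by edgeR, 0.350 by edgeR with the block, 0.563 with spike-in size factors, 0.228 with the low-count filter and 0.170 without the 2 libraries. Over the 15 comparisons 31 member values had an unadjusted p under 0.05, and 34, 25, 31, 14, 29 and 53 with the replicate block, edgeR, edgeR with the block, spike-in size factors, the low-count filter and without the 2 libraries. Merged exon length moved 38 of the 74 levels by more than the spread between libraries, with *Hrh3* (139.6) and *Chrm1* (161.5) again highest in amygdala and hippocampus. With median standard errors near 0.259 on the log2 scale, genotype differences of that size could not be told from 0 with 4 mice a group. Larger fitted values did not pass the adjusted threshold either. *Hrh1* in DM against *Kmt2a*-HET amygdala, at a log2 of -0.46, had an adjusted p of 0.251 (DESeq2). The absence of calls therefore does not exclude differences above 0.259.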

Other observations

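A pattern chosen after its values were seen concerns hippocampus. *Adra1b* and *Chrna4* were highest in the same library within each of the 4 genotypes (WT replicate 4, *Kmt2a*-HET replicate 2, *Kdm5c*-KO replicate 4 and DM replicate 3), and *Hrh1* was highest there in 2 of the 4. The summed level of 7 thalamus and habenula markers was highest in the same library in 3 of the 4 genotypes, at 45.4, 38.1 and 58.8 TPM, but in *Kmt2a*-HET it was highest in replicate 1, at 73.8. The part of neighbouring tissue in these levels was not tested.

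The main *Htr2c* transcript made up a median of 73.5% of the gene's summed TPM in amygdala (55.9% to 83.1%) and 61.0% in hippocampus (40.9% to 80.7%), so the ranges overlapped. For *Hrh3* the main transcript took 77.1% and 76.8%, and for *Chrm1* 72.8% and 69.3%.

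Some members lie near a mutated gene on the chromosome. *Htr3a* and *Drd2* start within 4.02 and 4.46 Mb of *Kmt2a* on chromosome 9, and *Htr2c* lies 5.04 Mb from *Kdm5c* on chromosome X. None of these 3 was called in any genotype comparison by DESeq2, where *Drd2* had no p in hippocampus.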
